A study of Mus musculus with 4 samples.

Results

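The loci of 10 genes reported to rise in expression in old hematopoietic stem cells were examined for accessible chromatin: Alcam, Jam2, Neo1, Enpp5, Nupr1, Wwtr1, Clca3a1, Aldh1a1, Sult1a1 and Ehd3. A locus was the gene body plus 100 kb on each side on GRCm38, and any deposited peak or listed site that overlapped it by 1 bp or more was a member. The 10 genes, of 21887 protein-coding genes in the RefSeq table, held 302 of 181668 merged narrow regions and 927 of 857290 merged broad regions. They also held 9 of the 4932 narrow and 6 of the 1325 broad sites that the authors listed as differing with age. Nupr1 and Sult1a1 are neighbours on chromosome 7 and their windows overlap, so regions in both windows were counted once in all totals. The genes were chosen by their known rise in old stem cells with the levels and log2 folds of the authors' listed sites already seen, so the counts and levels below describe the loci and test nothing about the choice.

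The assay was ATAC-seq, whose transposase inserts sequencing adapters where DNA is open. Each library came from 25000 sorted long-term hematopoietic stem cells (LT-HSCs), which renew themselves for life and give rise to all blood lineages, from wild-type C57BL/6 mice. Young mice were 4 to 5 months old and aged mice 20 to 22 months, with 2 libraries of each age described as biological replicates. The labels name no treatment and no engineered allele in either age. Whether a library pooled mice is not given in the labels, so the spread between libraries may be in part technical. Sequencing depth is unknown from the peak lists, and with 2 libraries against 2 the exact two-sided permutation test cannot give a p below 0.333.

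As hematopoietic stem cells age they become more numerous, favour platelet and myeloid output over lymphoid output, and change the expression of a recurring set of genes. Many of that set encode proteins of the cell surface or of the response to stress. Accessible DNA at a gene start usually marks a promoter in use or poised for use, and accessible DNA elsewhere in or near a gene can be an enhancer. A change in accessibility does not by itself give a change in RNA, which was not measured here.

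The starts of 3 members lay under a listed site, and for that reason their 250 bases before the start are shown. The sequences are from RefSeq (GRCm38.p6), 5′ to 3′ on the minus strand, which carries all 3 genes. Capitals mark matches on either strand to 2 of the 8 motifs searched, the SP-type motif CCCCGCCC and the E-box CACGTG, with no overlap between them.
Nupr1, chr7:126625471-126625720: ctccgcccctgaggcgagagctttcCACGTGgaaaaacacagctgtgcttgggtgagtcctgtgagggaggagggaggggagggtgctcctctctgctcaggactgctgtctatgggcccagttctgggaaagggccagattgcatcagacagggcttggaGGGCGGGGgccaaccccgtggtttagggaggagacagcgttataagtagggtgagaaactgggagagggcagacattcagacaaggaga
Clca3a1, chr3:144760978-144761227: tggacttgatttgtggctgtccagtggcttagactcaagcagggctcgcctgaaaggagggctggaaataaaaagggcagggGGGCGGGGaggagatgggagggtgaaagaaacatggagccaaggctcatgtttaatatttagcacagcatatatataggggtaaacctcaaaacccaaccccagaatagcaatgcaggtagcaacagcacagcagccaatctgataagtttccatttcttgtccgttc
Alcam, chr16:52453082-52453331: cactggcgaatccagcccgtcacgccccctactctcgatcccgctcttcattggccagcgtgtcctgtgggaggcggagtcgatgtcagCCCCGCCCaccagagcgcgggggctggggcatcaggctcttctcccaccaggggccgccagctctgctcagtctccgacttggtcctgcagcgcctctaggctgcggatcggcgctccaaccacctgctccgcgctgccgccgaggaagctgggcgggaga

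These 3 sequences differ in base composition and in how the peaks cover them. The Nupr1 sequence has 59.2% G or C and 6 CG pairs, the Clca3a1 sequence 48.8% and 3, and the Alcam sequence 69.2% and 22, against medians of 52.4% and 6 over 32851 promoter windows of this length. No narrow peak of either young library covered any base of the Nupr1 sequence, while those of the aged libraries covered 157 bases in replicate 1 and all 250 in replicate 2. All 250 bases of the Alcam sequence lay under a narrow peak in each of the 4 libraries. The Clca3a1 sequence was covered over 250 and 147 bases in young replicates 1 and 2 and over 250 and 213 bases in aged replicates 1 and 2. The SP-type motif, present in all 3, was found in 16.1% of all promoter windows, and the E-box, present in the Nupr1 sequence alone of the 3, in 6.02%. A match describes the letters and does not show that a factor binds.

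Among the other members with an entry in the start table, Wwtr1 held an SP-type match and a match to GGAATG, the core recognised by TEAD factors, which was in 12.6% of all windows. Aldh1a1 has 2 listed starts: the first held a GGAATG match and an AP-1 match (TGANTCA, in 6.75% of windows), and the second a GATA match (AGATAA, in 9.99%). Neo1, Sult1a1 and Ehd3 held none of the 8 motifs in these windows, which says only that the letters are not there. The cyclic AMP response element TGACGTCA, the ETS core CCGGAA and the RUNX core TGTGGT were in none of the members' windows. Of the 10 members, 8 had an entry in the start table. Jam2 and Enpp5 are described by their gene ends.

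Sites listed as gained in aged libraries occurred at 7 of the 10 loci. The broad one of the authors' deposited tables held 5 gained sites, at Alcam, Neo1, Enpp5, Wwtr1 and the shared window of Nupr1 and Sult1a1. The narrow one of the authors' deposited tables held 1 gained site, at the start of Clca3a1. Listed losses were more numerous, and smaller in log2 fold than the gained broad sites. There were 8 lost narrow sites over Alcam, Jam2, Wwtr1, Aldh1a1 and the shared Nupr1 and Sult1a1 window and 1 lost broad site at Alcam. Ehd3 had no listed site. For the background, 2.24% of all protein-coding genes had a gained broad site within 100 kb, 0.224% a gained narrow site, 44.2% a lost narrow site and 12.1% a lost broad site. Among regions where 2 or more libraries had a peak, the authors' deposited tables list 0.0237% of narrow ones as gained and 4.3% as lost, and 0.0857% of broad ones as gained and 0.376% as lost. Nothing is read from these shares about the members, since the same contrast was known when they were chosen.

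**Figure D1:**
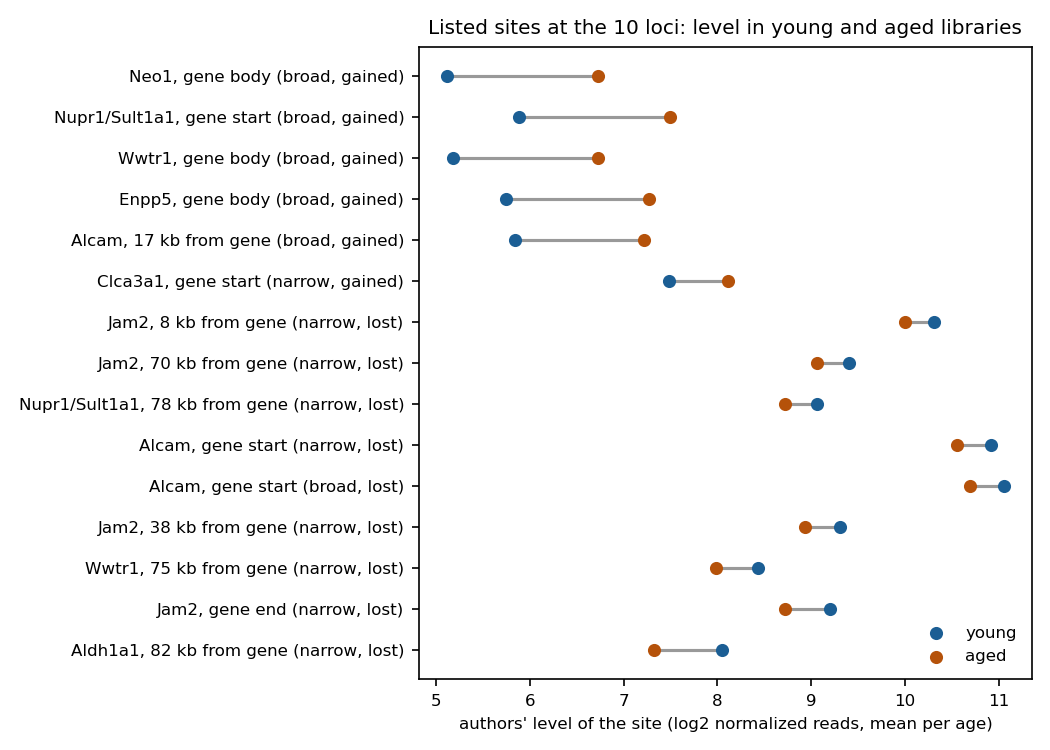
Levels in the authors' deposited tables (x axis, log2 normalized reads averaged per age) of the 15 distinct listed sites at the 10 loci, with young in blue and aged in orange; the distance for the shared Nupr1 and Sult1a1 window is from Nupr1. The 5 gained broad sites start from young levels of 5.11 to 5.88 and the lost narrow sites from 8.05 to 10.92.

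The 5 gained broad sites had lower levels than the lost sites in the authors' deposited tables, although narrow and broad levels may have been normalized separately. Young levels of the 5 gained broad sites were 5.11 to 5.88 log2 normalized reads in the authors' deposited table, and their aged levels 6.72 to 7.49. Their median log2 fold was 1.54, below the median of 1.93 over all 246 gained broad sites in the authors' deposited table. Their median level of 6.69 was above the median of 5.75 over the same 246 sites in the authors' deposited table. The median log2 fold of the 8 lost narrow sites was -0.37 and their median level 9.06, beside -0.40 and 9.05 over all 4905 lost narrow sites in the authors' deposited table. All 5 gained broad sites had an absolute log2 fold above 1, and none of the lost sites at the members did in the authors' deposited tables. The medians over all listed sites lay on the same sides of 1 in size. In the authors' deposited tables they were 1.93 for gained broad, -0.40 for lost narrow and -0.49 for lost broad sites. This contrast is therefore not read as particular to the members.

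Nupr1 encodes a small nuclear protein induced by cell stress. A broad site over its start (chromosome 7, 126624849 to 126625752) rose from 5.88 in young to 7.49 in aged libraries, with log2 fold 1.61 and FDR 0.00117 per the authors' deposited table. By p it was number 14 of the 246 gained broad sites in the authors' deposited table, the smallest p of a gained site at the 10 loci. Narrow peaks over the start (126625387 to 126625735) were listed in the aged libraries alone, with a fold enrichment over background of 2.36 in replicate 1 and 3.44 in replicate 2. Both aged peaks had a q under 0.05 (−log10 q of 2.31 and 6.42), so the 2 ages did not overlap in the presence of a peak. The broad lists gave the same pattern, with folds of 1.72 and 2.34 in aged replicates 1 and 2 and no broad peak in either young library. The fold of aged replicate 1 in the broad list was weak, with a −log10 q of 0.46.

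Of the 21 regions of the Nupr1 window with a peak in all 4 libraries, 6 ranked lower and 3 higher in both aged libraries, beside 17.8% and 19.4% of all such regions in the series. Ranked by −log10 p, 6 were lower and 5 higher. Of the narrow regions with a peak in all 4 libraries, one 812 bp beyond the far end of the gene (126620962 to 126622434) had folds of 8.39 and 9.06 in young replicates 1 and 2 and 6.84 and 8.13 in aged replicates 1 and 2. Expressed as a percentile within each library among the 76893 narrow regions with a peak in all 4 (100 is strongest), it stood at 79.7 and 83.2 in the young and at 60.9 and 58.3 in aged libraries. A region 4.6 kb before the start (126629631 to 126630503) stood at 33.4 and 29.7 in the young and at 6.7 and 6.6 in aged libraries. At both regions each aged percentile was below each young one, and the exact permutation p at the first was 0.333, the smallest possible. The strongest region of the locus, 17.7 kb before the start (126642697 to 126643703), ranked higher, at 91.7 and 85.9 in the young and 94.8 and 96.8 in the aged libraries. Peaks restricted to the 2 aged libraries lay 2.8 kb before the start (126628097 to 126628373, folds 2.07 and 3.95) and 8.6 kb after it (126616801 to 126616970, folds 3.54 and 2.98). Toward Il27, which encodes a cytokine subunit, aged-only peaks lay at 126587734 to 126588144 (folds 3.79 and 5.62) and 126599003 to 126599340 (folds 3.12 and 8.29).

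Sult1a1, a sulfotransferase that conjugates phenols, shares the listed sites of Nupr1, and the gained one lies 51.1 kb after the Sult1a1 start. The start listed for Sult1a1 (126676418) lies inside the gene body (126672865 to 126690443, minus strand) and not at its upper end. The region over this listed start (126675899 to 126677019) had folds of 6.52 and 4.45 in the young and 5.77 and 7.76 in aged replicates 1 and 2. Its percentiles of 58.1 and 25.5 in the young and 46.3 and 54.1 in aged libraries overlapped. The nearest region with peaks in both aged libraries alone lay 6.6 kb after the listed start and 3.0 kb outside the gene (126669723 to 126669876), with folds of 4.11 and 4.54. The lost narrow site of the shared window (126703579 to 126705260) lay at an end of Coro1a, which encodes an actin-binding protein of leukocytes, and had levels of 9.06 in the young and 8.72 in aged libraries in the authors' deposited table. Its log2 fold was -0.35 and its FDR 0.0498, just inside the 0.05 of the authors' deposited table. The narrow folds of this lost site were 6.04 and 6.09 in the young and 7.45 and 6.93 in aged replicates 1 and 2. Its percentiles overlapped, at 52.3 and 49.9 in the young and 68.5 and 44.8 in aged libraries.

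Wwtr1 encodes TAZ, a transcriptional coactivator of the Hippo pathway that binds TEAD factors. A broad site in its body, 65.6 kb after the start (chromosome 3, 57509832 to 57510651), rose from 5.18 to 6.72 (log2 fold 1.54, FDR 0.0452 in the authors' deposited table). The peaks under it did not separate the ages: narrow folds were 3.12 in young replicate 1 and 2.86 and 5.30 in aged replicates 1 and 2, with no peak in young replicate 2. The Wwtr1 window held 21 regions with a peak in all 4 libraries. Of these, 5 ranked higher and 3 lower in both aged libraries, beside 19.4% and 17.8% of all such regions in the series. Regions 58.3, 59.4, 88.3 and 105 kb after the start ranked higher in both aged than in both young libraries, by 17.5, 23.2, 31.1 and 28.5 percentile points on average. The strongest region of the locus, 25.1 kb after the start (57550353 to 57551139), ranked lower, at 99.5 and 97.4 in the young and at 94.3 in both aged libraries. Aged-only peaks lay in the body 1.6, 18.3 and 95.0 kb after the start, with folds of 1.96 and 2.74, 3.20 and 2.56, and 2.93 and 5.94. The region over the start itself (57574863 to 57576783) had folds of 6.56 and 6.50 in the young and 7.16 and 7.48 in aged libraries. Its percentiles overlapped, at 58.4 and 55.3 in the young and 65.0 and 50.6 in aged replicates 1 and 2. At the neighbouring end of Commd2, 75.2 kb from Wwtr1, a lost narrow site (57651128 to 57652158) fell from 8.43 to 7.98 (log2 fold -0.45, FDR 0.0427 in the authors' deposited table). Its percentiles were also lower, at 97.8 and 94.3 in the young and 93.1 and 90.4 in aged replicates 1 and 2.

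**Figure D2:**
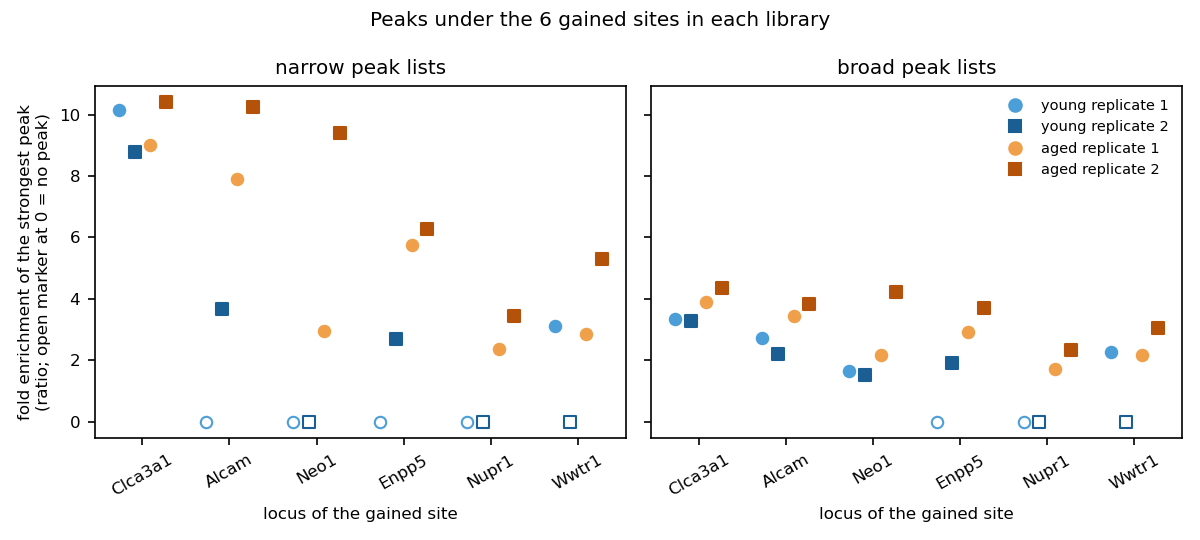
Fold enrichment (y axis, a ratio within each library) of the strongest narrow and broad peak under the 6 gained sites, 1 marker per library and an open marker at 0 where a library has no peak. Both aged libraries have a narrow peak at every site, and narrow peaks are missing in both young libraries at Neo1 and Nupr1, in young replicate 1 at Alcam and Enpp5 and in young replicate 2 at Wwtr1.

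Alcam, Jam2 and Neo1 encode surface proteins of adhesion and guidance. Alcam (CD166) is an immunoglobulin-type adhesion molecule that binds itself and CD6. Its start lay under a wide lost site (chromosome 16, 52449999 to 52453685) that fell from 10.92 to 10.56, with log2 fold -0.36 and FDR 0.00162 per the authors' deposited narrow table. The narrow peak there had folds of 3.80 and 4.51 in young replicates 1 and 2 and 4.13 and 6.18 in the aged ones. Its percentiles of 18.4 and 27.2 against 21.1 and 35.9 overlapped, with an aged mean 5.65 points above the young mean. Its broad counterpart fell from 11.06 to 10.70 (log2 fold -0.36, FDR 0.00504 in the authors' deposited table). In level the narrow site was number 19 of the 4905 lost narrow sites in the authors' deposited table. A gained broad site 17.4 kb before the start (52469812 to 52471157) rose from 5.84 to 7.22 (log2 fold 1.38, FDR 0.0210 in the authors' deposited table). Narrow folds there were 7.91 and 10.2 in aged replicates 1 and 2 and 3.67 in young replicate 2, and young replicate 1 had none. Broad peaks were listed there in all 4 libraries, with folds of 2.71 and 2.21 in young and 3.45 and 3.81 in aged replicates 1 and 2. At Alcam a loss over the start and a gain upstream were therefore both listed.

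Of the 17 regions of the Alcam window with a peak in all 4 libraries, 4 ranked lower and 1 higher in both aged libraries, beside 17.8% and 19.4% of all such regions. Ranked by −log10 p, 3 were lower and 1 higher. One region in the body, 34.9 kb after the start, ranked higher in both aged libraries (38.8 and 22.8 in the young, 49.2 and 46.1 in the aged). One in the body 14.7 kb after the start and 3 beyond the far end ranked lower, with aged minus young differences of -32.2 to -12.5 percentile points. Those 3 lay 87.5, 74.8 and 29.4 kb from Alcam. Cblb had the gene end nearest to them, at 46832, 34311 and 11209 bp from their midpoints. The one aged-only peak of the locus lay 67.2 kb beyond the far end (52181415 to 52181795, folds 2.36 and 2.69). Its nearest gene end was also that of Cblb, at 26442 bp. The strongest region of the locus, 142 kb after the start (52310868 to 52311842), stood at 88.0 and 95.4 in the young and 88.0 and 97.3 in aged libraries and did not separate the ages.

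Jam2, junctional adhesion molecule B, had the most listed losses of the 10, and no listed gain. A site over its lower gene end (chromosome 16, 84773294 to 84775232) fell from 9.20 to 8.72, with log2 fold -0.48 and FDR 0.00749 per the authors' deposited table. The remaining 3 lost sites had log2 folds of -0.31, -0.37 and -0.34 in the authors' deposited table. They lay at an end of Gabpa (84834313 to 84836408), which encodes an ETS transcription factor, at an end of Mrpl39 (84734851 to 84736260), which encodes a mitochondrial ribosomal protein, and 70.4 kb from Jam2 (84702561 to 84703750). Narrow folds over the lower Jam2 end were 5.84 and 5.98 in the young and 7.62 and 6.62 in aged replicates 1 and 2. At Gabpa they were 6.20 and 6.47 against 7.78 and 6.85, and at the 70.4 kb site 6.70 and 6.31 against 6.74 and 8.02. The fold percentiles overlapped between ages at each of these, and the Mrpl39 site is described below. Of the 16 regions of the window with a peak in all 4 libraries, 4 ranked higher and 0 lower in both aged libraries, beside 19.4% and 17.8% of all such regions, and 2 of the 4 lay inside the Jam2 body. Ranked by −log10 p, 4 were higher and 2 lower. A region 20.9 kb from the lower end (84794747 to 84795382) stood at 10.4 and 2.8 in the young and 18.2 and 36.2 in aged libraries. Another 15.8 kb from the upper end (84810297 to 84810799) stood at 19.9 and 37.9 in the young and 67.2 and 40.6 in aged libraries.

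The Mrpl39 site shows that the measures need not go together. It was listed as lost in the authors' deposited table, yet its folds of 8.23 and 8.66 in the young and 9.40 and 11.6 in aged replicates 1 and 2 ranked higher in both aged libraries. Over all 4893 lost narrow sites with a peak in each library, the fold percentile was higher in both aged libraries for 28.6% and lower for 11.0%. Ranked by −log10 p in place of fold, 11.7% were higher and 24.7% lower. Of the 27 gained narrow sites 66.7% ranked higher by fold and 88.9% by −log10 p. The peak fold is the height over local background, so the authors' read levels and the peak ranks are given here as different quantities.

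Neo1 encodes neogenin, a receptor for netrins and repulsive guidance molecules. A broad site deep in its body, 87.8 kb after the start (chromosome 9, 58947872 to 58949350), rose from 5.11 to 6.72 (log2 fold 1.61, FDR 0.0449 in the authors' deposited table). Under it narrow peaks were listed in both aged libraries and in neither young one, with folds of 2.93 and 9.39 in aged replicates 1 and 2. The broad lists had a peak there in all 4 libraries, so presence of a broad peak did not separate the ages. Broad folds were 1.66 and 1.52 in young and 2.17 and 4.21 in aged replicates 1 and 2. The broad −log10 q was 0 in both young libraries, 0.50 in aged replicate 1 and 4.60 in aged replicate 2. A region 21.1 kb after the start (59015093 to 59015600) had the widest gain of rank at the 10 loci, chosen after its values were seen. The Neo1 window held 8 regions with a peak in all 4 libraries. Of these, 3 ranked higher and 2 lower in both aged libraries, beside 19.4% and 17.8% of all such regions in the series. The lower ones lay 68.2 kb from the gene (58805823 to 58806462) and at an end of Hcn4 (58822346 to 58824111), with differences of -22.2 and -25.9 percentile points. The 21.1 kb region had folds of 2.7 and 3.3 in the young and 5.9 and 9.1 in aged replicates 1 and 2, and percentiles of 4.0 and 9.8 against 48.2 and 69.2. Peaks of both young libraries alone lay at 58954700 to 58954988 (folds 3.32 and 2.96), 81.6 kb after the start, in the same stretch of the body as the aged-only peak at 88.2 kb. The start region (59035304 to 59037302), the strongest of the locus, stood at 94.8 and 69.3 in the young and 80.8 and 87.9 in aged libraries, which overlap.

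Enpp5, Aldh1a1 and Sult1a1 encode enzymes or enzyme-like proteins. Enpp5 belongs to the ectonucleotide pyrophosphatase and phosphodiesterase family of membrane glycoproteins. A broad site within its body (chromosome 17, 44082991 to 44084021) rose from 5.74 to 7.27, with log2 fold 1.53 and FDR 0.0134 per the authors' deposited table. Narrow folds under it were 5.76 and 6.29 in aged replicates 1 and 2 and 2.69 in young replicate 2, and young replicate 1 had no peak. Peaks in the aged libraries alone lay 1467 bp (44076689 to 44077335, folds 2.84 and 2.85) and 864 bp (44077530 to 44077938, folds 2.41 and 2.46) outside the lower gene end, and one 30.1 kb beyond the upper end (44116703 to 44117052, folds 2.19 and 2.77). The strong region on the lower end itself (44078360 to 44079261) stood at 84.8 and 70.4 in the young and at 76.8 and 61.2 in aged libraries, which overlap. Of the 17 regions of its window with a peak in all 4 libraries, 5 ranked higher and 1 lower in both aged libraries, beside 19.4% and 17.8% of all such regions, and all 6 were outside the gene. Ranked by −log10 p, 4 were higher and 1 lower. The strongest region of the locus (44053146 to 44054057, 24.7 kb from the gene) had percentiles of 88.9 and 98.4 in the young and 94.5 and 83.0 in the aged libraries, which overlap.

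Aldh1a1 oxidises retinaldehyde to retinoic acid. No gained site was listed within its window. A lost narrow site 82.1 kb from the gene (chromosome 19, 20409308 to 20410469) fell from 8.05 to 7.32 (log2 fold -0.73, FDR 0.0194 in the authors' deposited table). By size of fold it was number 172 of 4905 lost sites in the authors' deposited table. No narrow peak lay within 1 kb of the first start in any library, while the second start was covered in all 4 (20600792 to 20602564). That region had folds of 6.04 and 7.48 in the young and 6.41 and 8.75 in aged replicates 1 and 2, and its percentiles of 52.3 and 67.9 against 55.6 and 65.4 overlapped. A region 24.5 kb before the first start (20467655 to 20468527) ranked lower in both aged libraries, at 91.3 and 77.7 in the young against 73.0 and 42.5 in the aged. One 57.3 kb before it (20434460 to 20436022) ranked higher, at 47.6 and 39.3 in the young against 70.8 and 72.1 in the aged. At the strongest region of this locus (20423860 to 20424863) the ages overlapped, at 86.7 and 98.8 against 96.7 and 99.5. An aged-only peak lay 98.6 kb from the gene (20393487 to 20394006, folds 3.37 and 7.85). Its midpoint was 3075 bp from an end of Anxa1, the nearest gene end. Anxa1 also had the gene end nearest to the lost site (19217 bp) and to the strongest region (33690 bp).

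Clca3a1, of the family of calcium-activated chloride channel regulators, had the listed gained narrow site over its start (chromosome 3, 144760279 to 144761797). Its level was 7.48 in the young and 8.11 in aged libraries, and its log2 fold of 0.62 was number 23 of 27 by size among gained narrow sites in the authors' deposited table. The narrow peaks had folds of 10.1 and 8.78 in the young and 9.0 and 10.4 in aged replicates 1 and 2. By fold percentile the ages overlapped (92.2 and 80.6 against 83.6 and 80.0), while ranked by −log10 p both aged libraries were above both young ones. Of the 13 regions of the window with a peak in all 4 libraries, 4 ranked higher and 2 lower in both aged libraries, beside 19.4% and 17.8% of all such regions. The widest gain was 36.9 percentile points at 144691983 to 144692460 (29.0 and 27.3 against 64.4 and 65.8). The lower ones lay at an end of Sh3glb1 (144718992 to 144720815, -9.58 points) and in the Clca3a1 body (144736947 to 144737306, -13.4 points). Aged-only peaks lay at 144670203 to 144670759 (folds 3.45 and 7.17), 144723436 to 144723718 (2.61 and 3.71) and 144787086 to 144787370 (2.85 and 2.37). At the strongest region of this locus (144703703 to 144704980) the ages overlapped, at 96.7 and 96.0 against 83.4 and 96.6. The near copies Clca3a2 and Clca3b adjoin Clca3a1, Aldh1a7 adjoins Aldh1a1, and reads shared between such copies were not tested.

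Ehd3 encodes an ATPase that works in endocytic recycling. No site of its window was listed in either direction. The region over the start (chromosome 17, 73804315 to 73805402) was among the strongest at any member, with folds of 11.5 and 8.44 in the young and 8.98 and 13.1 in aged replicates 1 and 2, and its percentiles of 97.4, 77.5, 83.5 and 95.0 overlapped between ages. Of the 10 regions of the window with a peak in all 4 libraries, 4 ranked higher and 0 lower in both aged libraries, beside 19.4% and 17.8% of all such regions. The 4 lay 7.8, 60.7 and 80.3 kb before the start and 97.6 kb after it, with mean differences of 15.7 to 39.3 percentile points. The strongest region of the locus (73881956 to 73882638) stood at 83.0 and 93.2 in the young and 82.3 and 96.8 in the aged libraries, which overlap. An aged-only region 48.6 kb after the start (73852978 to 73853888) had folds of 3.26 in aged replicate 1 and 11.2 in aged replicate 2, and one 87.0 kb after it (73891722 to 73891875) had 3.41 and 4.87.

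**Figure D3:**
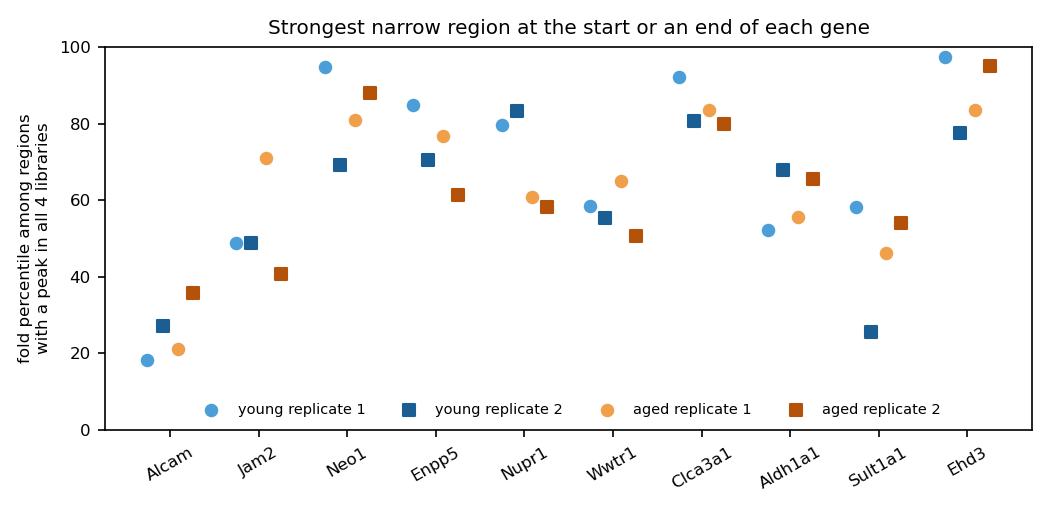
Fold percentile (y axis, among the 76893 narrow regions with a peak in all 4 libraries, 100 is strongest) of the strongest narrow region within 1 kb of the start or an end of each gene, 1 marker per library. The ages overlap at 9 genes, and at Nupr1 the marked region is the one 812 bp beyond the far gene end, which is lower in both aged libraries.

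Presence of a peak was then compared over all 302 narrow regions of the loci. In 138 of them (45.7%) a peak was listed in all 4 libraries, beside 42.3% of all narrow regions. A peak in both aged and neither young library was found at 20 regions (6.62%, against 2.91% of all narrow regions), and the reverse at 2 regions (0.662%, against 1.63%). The 20 regions were spread over 9 of the 10 loci, all but Jam2. Of these regions, 14 had a q under 0.05 in both aged libraries, and their median width was 343.5 bp. Their folds were 1.96 to 4.11 in aged replicate 1 (median 2.93) and 2.37 to 11.2 in aged replicate 2 (median 3.83). The 2 young-only regions lay 19.1 kb outside Jam2 (84845445 to 84845657, folds 2.32 and 3.71) and in the Neo1 body.

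At the members aged-only regions outnumbered young-only ones with any library left out. They numbered 27 and 20 without young replicate 1 and 33 and 16 without young replicate 2. Without aged replicate 1 there were 64 and 5, and with only aged replicate 2 left out 35 and 8. The same counts were not made over all narrow regions, so this order is not read as particular to the members. Over all narrow regions, those with a peak in a single library numbered 9030 and 21645 for young replicates 1 and 2. For aged replicates 1 and 2 they numbered 12845 and 24198. With the top 50000 peaks of each library the members had 10 aged-only and 2 young-only regions, and with at least 50% of a region covered 18 and 13. Broad lists gave 34 aged-only (3.67%, against 2.31% of all broad regions) and 11 young-only regions (1.19%, against 1.78%). Without young replicate 1 the broad order turned to 48 and 154, and without young replicate 2 to 58 and 75. Aged replicate 2 had the most peaks: it had a narrow peak at 78.5% of the 302 regions, beside 59.3% and 64.9% in young replicates 1 and 2 and 69.5% in aged replicate 1. Over all narrow regions these shares were 69.6%, 57.3%, 67.4% and 62.3% in the same order. The fold was higher in aged replicate 2 than in aged replicate 1 at 17 of the 20 aged-only regions. The part of library differences in the counts was not tested.

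**Figure D4:**
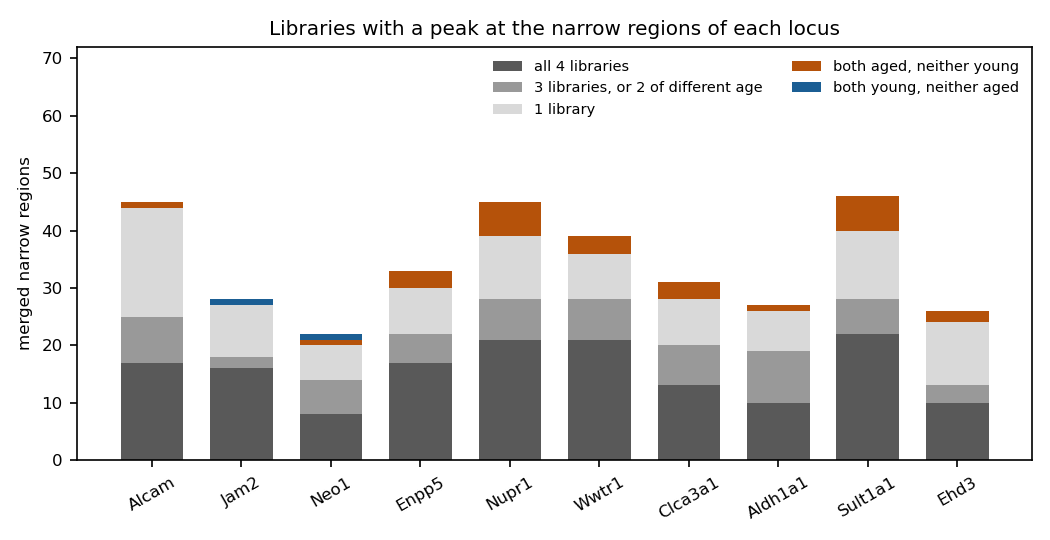
Number of merged narrow regions per locus (y axis), stacked by the libraries with a peak; Nupr1 and Sult1a1 share most of theirs. Regions with a peak in both aged and neither young library (orange) number 0 to 6 per locus, and the reverse (blue) occurs once at Jam2 and once at Neo1.

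Ranks were compared at the 138 regions with a peak in all 4 libraries. Both aged libraries ranked above both young ones at 32 regions (23.2%, against 19.4% of all such regions), and below at 20 (14.5%, against 17.8%). These shares are near the background. Ranked by −log10 p, 35 were higher and 21 lower, beside 18% and 18.6% of all such regions. By both measures 30 of the 32 were higher and 18 of the 20 lower. The differences ran from 3.75 to 51.8 percentile points for the higher and from -32.2 to -2.19 for the lower regions. Most of the higher ones, 24 of 32, had a mean young percentile below 50, and 15 of the 20 lower ones had one above 50. The calling rule favours such a split, because percentiles are bounded and a higher call needs young ranks below the aged ones. The same split was not counted over all called regions of the series, so nothing is read from it about the members. Leaving out a library loosens the condition, and gave 59 higher and 40 lower regions without young replicate 1 and 49 of each without young replicate 2. Without aged replicate 1 there were 65 and 49, and with only aged replicate 2 left out 52 and 42. Without young replicate 2 the higher regions thus did not outnumber the lower ones. These counts are not set beside the same counts over all ranked regions, so nothing is read from them about the members.

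Regions at gene ends and distal regions were counted apart. A midpoint within 1 kb of an end of a protein-coding gene was found for 34 of 302 regions (11.3%, against 10.2% of all narrow regions). Peaks were present in all 4 libraries at 76.5% of these and at 41.8% of distal ones, beside 76.1% and 38.5% over all regions. Among regions with a peak in all 4 libraries, 4 of 26 at gene ends ranked higher (15.4%, against 20.9% of all gene-end regions) and 7 lower (26.9%, against 14.9%) in both aged libraries. Of the distal ones 28 of 112 ranked higher (25%, against 19.1% of all distal regions) and 13 lower (11.6%, against 18.4%). All 11 gene-end changes were at ends of neighbouring genes. At the starts and ends of the members themselves, none of 9 regions with a midpoint within 1 kb ranked higher or lower in both aged libraries, and by overlap with the same 1 kb the one beyond the far end of Nupr1 ranked lower. The difference between gene ends and distal regions was not tested. Whether a distal region lies in an exon or an intron was not analysed here.

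**Figure D5:**
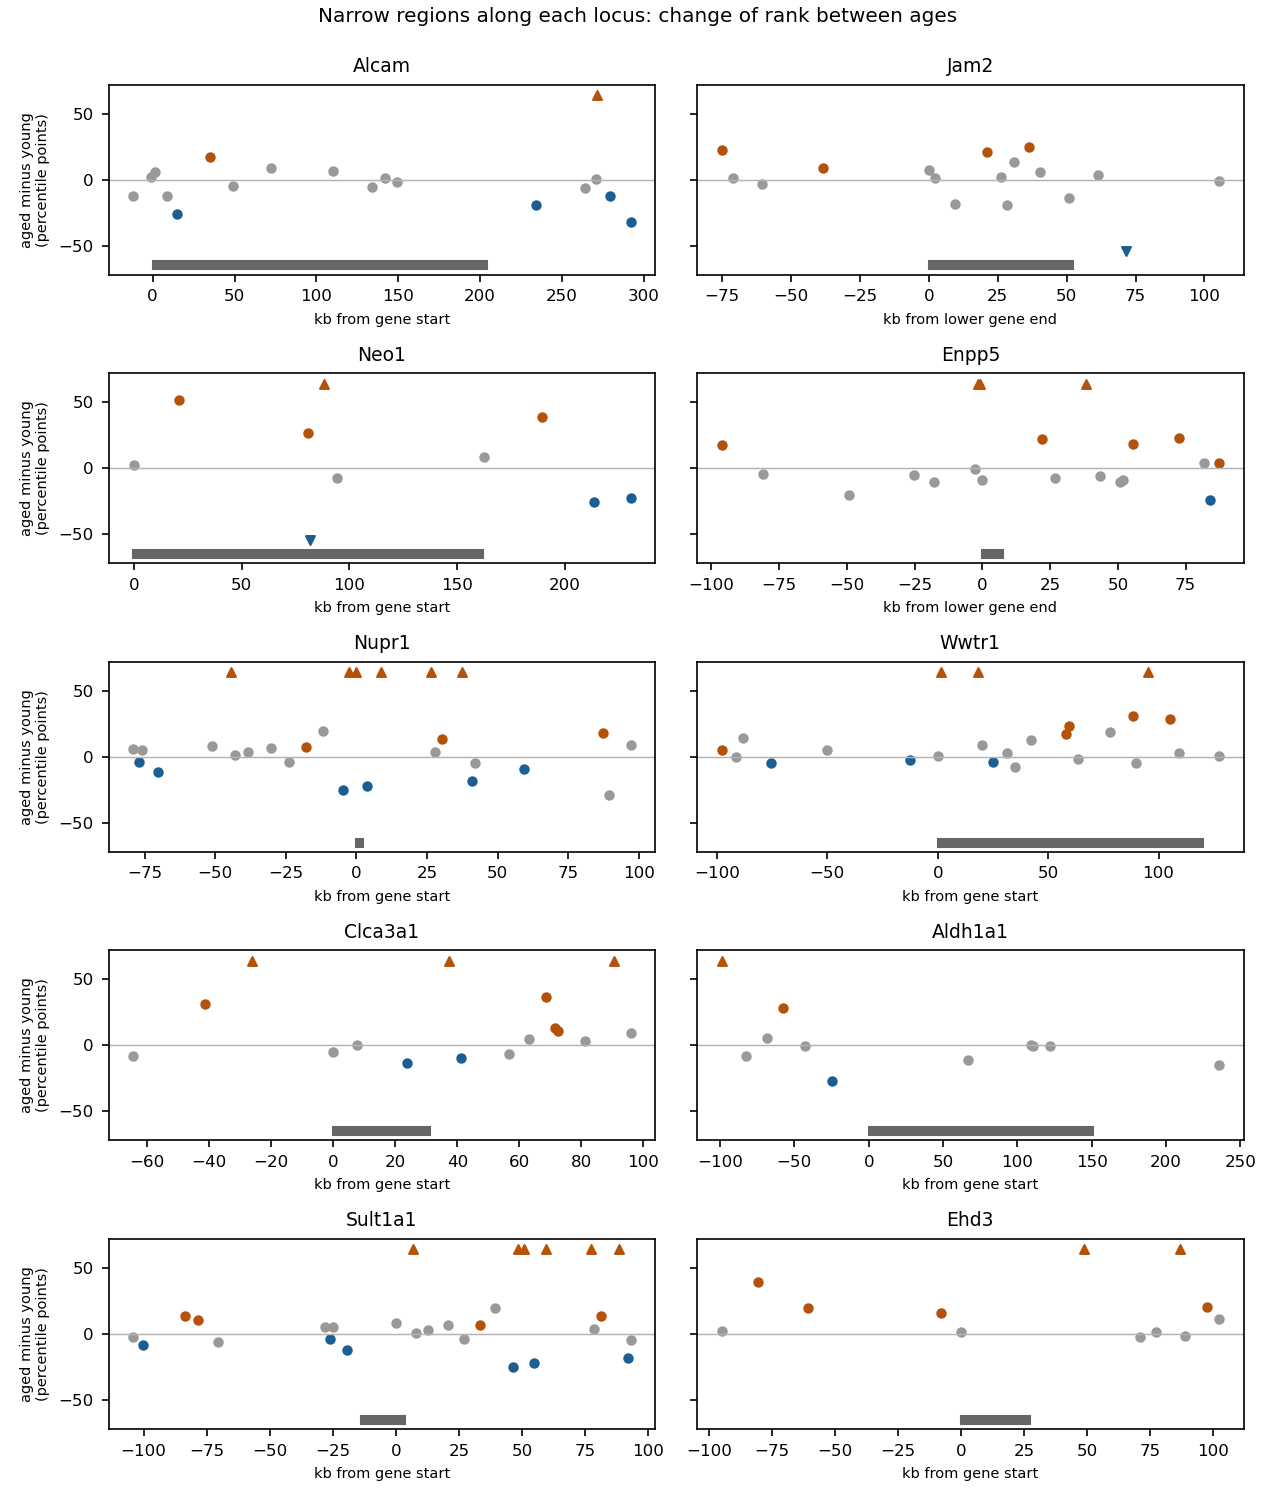
Each panel shows 1 locus by distance in kb from the gene start (first listed start; lower gene end for Jam2 and Enpp5), the dark bar being the gene body, and the y axis gives the aged minus young mean percentile of each narrow region with a peak in all 4 libraries. Orange points ranked higher and blue points lower in both aged libraries, grey points overlapped, and triangles at the upper and lower edge are aged-only and young-only regions, which have no percentile. Regions in all 4 libraries that cover a gene start are grey, the Nupr1 start has an aged-only triangle, and orange points lie away from the starts, up to 51.8 percentile points in Neo1.

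The window of 100 kb decided which sites belong. Just inside it were the lost sites of Wwtr1 at 75.2 kb, of Nupr1 at 78.1 kb and of Aldh1a1 at 82.1 kb. The Nupr1 site also lay 13.1 kb from Sult1a1, so its membership did not rest on the window edge. Just outside lay another lost narrow site of Aldh1a1 at 101643 bp (log2 fold -0.69, FDR 0.00838 in the authors' deposited table). Further out, lost narrow sites lay 159 kb from Wwtr1 (log2 fold -0.28, FDR 0.0388 in the authors' deposited table) and 217 kb from Alcam (log2 fold -0.31, FDR 0.0345 in the authors' deposited table). A gained narrow site lay 183 kb from Jam2 (log2 fold 0.72, FDR 0.0429 in the authors' deposited table) and a gained broad site 202 kb from Wwtr1 (log2 fold 2.03, FDR 0.0414 in the authors' deposited table).

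Another 29 genes known from aging stem cells, also listed with earlier results known, were taken for comparison. Of these, 2 had a gained broad site within 100 kb: Vwf, which encodes von Willebrand factor (log2 fold 2.16, FDR 0.0116 in the authors' deposited table), and Plscr2, a phospholipid scramblase (log2 fold 1.41, FDR 0.0277 in the authors' deposited table). None had a gained narrow site, 15 had a lost narrow site and 4 a lost broad site. Over all protein-coding genes, 2.24% had a gained broad, 0.224% a gained narrow, 44.2% a lost narrow and 12.1% a lost broad site. The windows of the 29 genes held 897 narrow regions. Of these, 38 (4.24%, against 2.91% of all narrow regions) were aged-only and 14 (1.56%, against 1.63%) young-only. The same windows held 408 regions with a peak in all 4 libraries. Of these, 93 (22.8%, against 19.4% of all such regions) ranked higher and 63 (15.4%, against 17.8%) lower in both aged libraries.

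The labelled cell type was checked on gene starts. A narrow region with a peak in all 4 libraries covered the starts of the stem cell genes Kit, Ly6a, Slamf1, Procr, Mecom, Hlf, Fgd5, Hoxb5 and Mllt3. The same held for 4 of 4 megakaryocyte genes (Pf4, Gp9, Itga2b, Gp1ba), 2 of 4 erythroid genes, 2 of 5 granulocyte and monocyte genes, and 1 of 4 each of T cell and endothelial or stromal genes. Of the B cell genes, the start of Ebf1 was covered. The starts of Cd79a, Pax5, Cd3e, Cd3g, Cd8a, Elane, Mpo, S100a8, Klf1, Alas2, Cdh5, Col1a1 and Pdgfra were not so covered. The part of other cells in the results was not tested. In bulk libraries a change in the share of cells that are open at a site and a change in openness per cell cannot be told apart.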

How the data were processed

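Each of the 4 libraries has a narrow and a broad peak list, so the authors called peaks per library. Per the submitters' processing notes, FastQC 0.11.9, BWA 0.7.17, MACS2 2.1.2 and DiffBind 2.14.0 were used on GRCm38; read shifting, duplicate removal and blacklisting are not given in the sources used here, and each can change peak number and strength. The deposited lists give a fold enrichment (a ratio within the library), a −log10 p and a −log10 q, and narrow lists include peaks well above a q of 0.05. Per the file headers, the deposited site tables give log2 levels, a log2 fold, a p-value and an FDR, and list only sites up to an FDR of 0.05. Without library values in them, sites could not be tested again here.

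Summits of one interval were reduced to 1 peak with its highest values. Overlapping or touching peaks of the 4 libraries were merged into regions, present in a library with at least 1 bp covered. Fold percentiles were computed within each library among regions with a peak in all 4; a region was called higher or lower where both aged libraries lay above or below both young ones. Gene bodies and starts came from RefSeq (GRCm38.p6); all 10 symbols matched. Positions are 1-based. Named regions were the listed sites, the strongest at a gene start or end and in each locus, and those of 1 age only; others were chosen after their values were seen. The members and lists were chosen with earlier results of these data known. Computations used matplotlib 3.10.9, scipy 1.17.1, pandas 2.3.3 and numpy 2.4.6 under Python 3.11.15. Merging and ranking were tested on simulated data against bedtools 2.31.1. Alternatives were the window, q under 0.05, the top 50000 peaks, the coverage, the ranking measure, an FDR under 0.01, an absolute log2 fold of at least 1, each library left out, and the replicate block. Part of the cell type marker check is not reported here.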

Additional observations from a re-analysis of the deposited data

How the results depend on the processing

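Depth is unknown, and 2 libraries per age limit every count. Narrow regions ranked higher and lower in both aged libraries numbered 10 and 7 within 10 kb of the genes and 9 and 3 in the bodies alone, windows that hold fewer regions. With replicate number as a replicate block (aged above young within each number) they were 42 higher and 32 lower. The numbers are not known to pair the libraries: deviations of same-numbered libraries had r = -0.07 over 76893 regions. Leaving out 1 library gave 49 to 65 higher and 40 to 49 lower regions. Aged-only and young-only narrow regions were 11 and 1 within 10 kb, 5 and 1 in the bodies, 16 and 1 at q under 0.05, 10 and 2 for the top 50000 peaks, 18 and 13 at 50% coverage, and 27 to 64 and 5 to 20 with a library left out. For broad regions they were 12 and 6, 11 and 6, 11 and 3, 10 and 4, 31 and 19, and 48 to 263 and 23 to 154 in the same order. Of the listed sites, the authors' deposited tables left 4 gained broad within 10 kb and in the bodies, 3 lost narrow within 10 kb and 2 in the bodies. At an FDR under 0.01 they left 1 gained and 1 lost broad, 2 lost narrow and 0 gained narrow sites, and where the log2 fold had to reach 1 in size they left 5 gained broad sites and 0 of the lost sites and of the gained narrow site. Regions at gene ends rose from 34 to 58 within 2 kb and to 44 by overlap, an alternative chosen after seeing the data. The cause of these shifts was not tested.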
